A study of Mus musculus with 24 samples.

Results

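The 10 genes described here encode the main parts of MHC class II antigen presentation: H2-Aa, H2-Ab1, H2-Eb1, Cd74, Ciita, H2-DMa, H2-DMb1, H2-DMb2, H2-Oa and H2-Ob. They were picked by symbol, and each symbol matched 1 of the 55487 genes in the annotation table. Their mRNA was measured by poly(A) RNA-seq in mouse dendritic cells raised from bone marrow with GM-CSF, a growth factor for myeloid cells. Per the labels, cultures were detached and replated on days 4 and 7, and suspension cells were sampled on days 7, 8, 9 and 10. Both genotypes carried ARPC4 Flox/Flox, that is, floxed alleles of Arpc4, a subunit of the Arp2/3 complex that nucleates branched actin. The controls were CD11c-Cre -/- (WT below) and the other mice were CD11c-Cre +/- (KO below), a transgene whose recombinase acts in cells that express CD11c, so cells without CD11c keep the floxed gene. Male and female mice 8 to 10 weeks old gave the marrow, the strain was not given, and no group received a further stimulus per the labels. Each of the 8 groups held 3 libraries, from mice 63, 65 and 66 in WT and 64, 67 and 68 in KO, so 24 libraries came from 6 mice. The design asks how control and KO cells differ as they differentiate to day 10.

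MHC class II molecules show peptides from engulfed proteins to CD4 T cells. The α and β chains are assembled in the endoplasmic reticulum with the invariant chain, Cd74, which fills the groove and routes the complex to endosomes, where proteases cut it down to a short remnant. H2-DM swaps that remnant for other peptides and H2-O restrains H2-DM. Transcription of these genes depends on Ciita, the class II transactivator, which binds no DNA itself and is recruited by factors on conserved X and Y boxes in the promoters. Immature dendritic cells are known to hold class II largely inside the cell.

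The promoters are shown first because they hold the shared elements through which these genes are known to be driven as a group. Promoter windows of 250 bases before to 50 after the start were taken from RefSeq on GRCm38.p6. Of the 10 genes, 7 matched the table: H2-Aa, H2-Eb1, H2-DMa, H2-DMb1, H2-DMb2, H2-Oa and H2-Ob. H2-Ab1, Cd74 and Ciita had no entry. Capitals mark 2 strings searched on both strands, AACNNATGATGC (reverse GCATCATNNGTT), called X here, and TGATTGG (reverse CCAATCA), called Y, an inverted CCAAT. They do not overlap each other in these stretches.
H2-Eb1: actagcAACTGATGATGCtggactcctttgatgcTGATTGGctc
H2-DMb1: cctagtAACTGATGATGCtaggctgattca
H2-DMb2: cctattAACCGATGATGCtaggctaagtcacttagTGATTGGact
H2-Ob: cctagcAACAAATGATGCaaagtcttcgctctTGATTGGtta
H2-Aa: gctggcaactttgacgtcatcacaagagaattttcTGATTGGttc
H2-Oa: cccattatctcagagaactgctcTGATTGG

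These stretches lie at chr17:34305772-34305815 (H2-Eb1), chr17:34153093-34153122 (H2-DMb1), chr17:34145122-34145166 (H2-DMb2), chr17:34238814-34238855 (H2-Ob) and chr17:34092311-34092340 (H2-Oa) on the plus strand, and at chr17:34287864-34287908 on the minus strand for H2-Aa. Relative to the start site, the X string began at -89 in H2-Eb1, -92 in H2-DMb1, -121 in H2-DMb2 and -85 in H2-Ob. The start is that of RefSeq: in GENCODE M21 all 30 bases shown for H2-DMb1 lie in an annotated exon, and the stretch of H2-DMb2 lies inside the span of its gene. In those promoters X began 28, 29, 29 and 26 bases before Y, in the same order, and the Y of H2-DMb1 lies outside the stretch printed. H2-Aa and H2-Oa held Y and not X in these letters, and neither string was found in the 2 promoters listed for H2-DMa. Of 32851 promoters in the table, 7.82% held Y and 13, or 0.0396%, held X. The pair with X starting 20 to 40 bases before Y was found in 4 promoters, those of H2-Eb1, H2-DMb1, H2-DMb2 and H2-Ob. The X letters were built from these 4 promoters, with N where they differ, so their rarity describes that choice and is not a result. Between H2-DMb1 and H2-DMb2 the first 30 bases shown differed by G5T, T10C, G25A and T27G, with the H2-DMb1 base first and positions counted from 1 at the 5′ end of the stretch.

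Of the 10 genes, 8 lie close together on chromosome 17 in GENCODE M21 on GRCm38. H2-Oa (chr17:34092340-34095234), H2-DMa (chr17:34119541-34139101), H2-DMb2 (chr17:34143307-34151555), H2-DMb1 (chr17:34153072-34160230), H2-Ob (chr17:34238903-34254414), H2-Ab1 (chr17:34257689-34269419) and H2-Eb1 (chr17:34305867-34316674) are on the plus strand, and H2-Aa (chr17:34282744-34287823) is on the minus strand. Ciita lies at chr16:10480059-10528418 and Cd74 at chr18:60803848-60812652, both on the plus strand. H2-DMa overlaps Brd2 on the opposite strand, whose counts came to 146% of those of H2-DMa, and Ciita overlaps Dexi on the opposite strand, with 15.2%. The library kits kept strand, but the strand setting of the counting was not given in the sources used here. H2-DMb1 and H2-DMb2 are near copies: 13.7% of the 100-base windows of the H2-DMb1 transcript, the read length, also occur in H2-DMb2, and reads from those could be split between them.

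Libraries held 19952047 to 31049798 counts, and replicates differed by more than sampling noise (chi-square per degree of freedom 7.26 to 132). Arpc4 was lower in all KO than in all WT libraries on each day. On day 10 it was at 210.4, 208 and 242 CPM (counts scaled to the library total) in WT and 185, 184 and 173 CPM in KO (log2 fold change -0.28 ± 0.07 SE, edgeR adjusted p = 0.22). Per the labels, the suspension cells taken were over 90% positive for CD11c, and Itgax, which encodes CD11c, was at 750.4 to 1661 CPM. The B cell genes Cd79a, Ms4a1, Pax5 and Ebf1 were at 0.0482 to 1.63 CPM, Cd79b at 0.497 to 2.25 CPM and Cd22 at 19.3 to 101 CPM, the summed B cell list being at 21.7 to 108 CPM, and the summed list for plasmacytoid dendritic cells at 0.175 to 0.983 CPM. Summed macrophage markers stood at 2571 to 5259 CPM and neutrophil markers at 1656 to 5874 CPM. In such bulk samples, fewer cells of a type and less RNA per cell cannot be told apart.

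The KO mouse numbers go against the Y-linked gene Ddx3y. In WT, mouse 63 had 56.5 to 83.9 CPM of Ddx3y on each day and the others at most 0.136 CPM. In KO the library with high Ddx3y was labelled 64 on days 7 and 9, 68 on day 8 and 67 on day 10, with Xist high in the other libraries. Values below follow the labels, each list of 3 being in the order 63, 65, 66 for WT and 64, 67, 68 for KO. Numbers 64 and 68 on day 8, and 64 and 67 on day 10, are the 4 KO libraries in doubt.

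All 10 genes were higher on day 10 than on day 7 in both genotypes. By the edgeR quasi-likelihood test with Benjamini-Hochberg adjustment over 14535 genes (threshold 0.05), 10 of 10 rose in WT, beside 18.9% of all genes tested, and 10 of 10 rose in KO, beside 19.7%. Over the members the log2 change had a median of 1.60 in WT and 1.22 in KO, and over all genes tested of -0.02 and 0.00. In WT all 3 day 10 libraries lay above all 3 day 7 libraries for 10 of 10 genes, a pattern 25% of all genes had. In KO this held for 8 of 10, beside 22.4%, and not for H2-Aa and H2-Oa. Together the 10 genes took 0.142 to 0.206% of all counts in WT on day 7 and 0.476 to 0.713% on day 10. In KO they took 0.186 to 0.287% and 0.382 to 0.967%. The KO count was 6 of 10 without the libraries labelled 64, where H2-Aa, H2-Ab1, H2-Eb1 and H2-Oa were lost. It was 8 of 10 with just the groups compared in the fit, where H2-Aa and H2-Oa were lost. Over all genes, 3201 of 14641 and 3340 of 14535 were then called in KO in either direction, beside 5353 in the main fit. Without the 4 KO libraries in doubt, which leaves KO 1 library on day 10, the median change of the members in KO was 1.25.

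**Figure D1:**
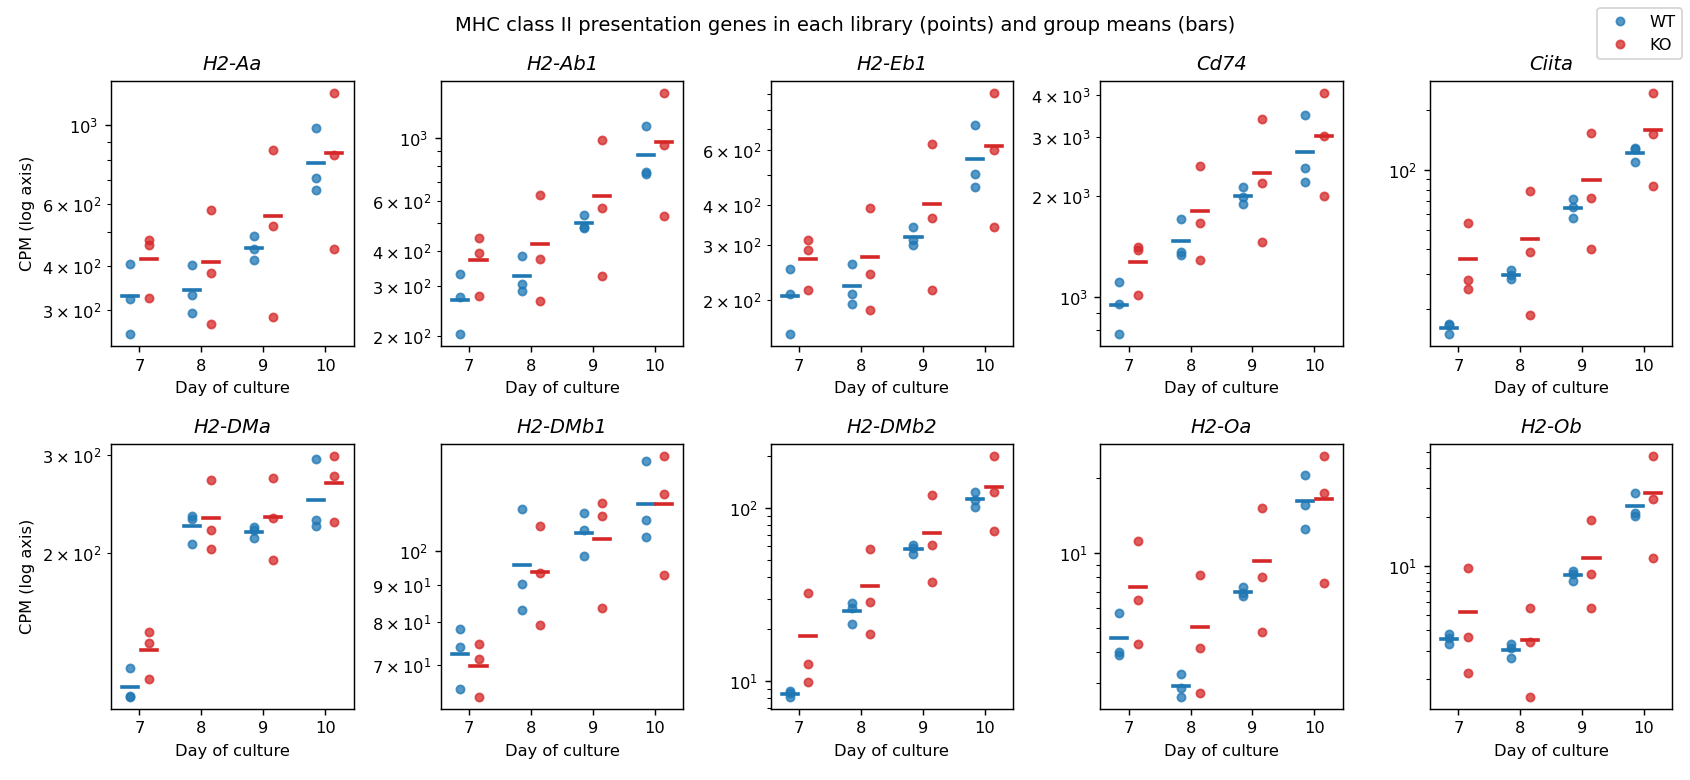
Each panel shows 1 gene, with the day of culture on the x axis and CPM on a log y axis. Points are the 3 libraries of each group, WT in blue and KO in red, and bars are group means. The WT libraries of day 10 lie above those of day 7 in every panel, and KO points spread more widely than WT points for 10 of 10 genes on day 9 and 9 of 10 on day 10, H2-Ab1 in KO on day 10 from 533 to 1440.3 CPM.

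The classical chains come first. H2-Ab1, the β chain of I-A, was at 204, 274 and 331 CPM in WT on day 7, at 289, 306 and 385 on day 8, at 481, 484 and 535 on day 9 and at 759.8, 745 and 1107 on day 10. Each WT day from 9 on lay wholly above the day before, while days 7 and 8 overlapped. In KO it was at 277, 444 and 394 CPM on day 7, at 373, 629.8 and 266 on day 8, at 328, 981 and 568 on day 9 and at 1440.3, 533 and 942 on day 10. KO libraries of neighbouring days overlapped at each step, and day 10 was above day 7 in all. H2-Ab1 rose by a log2 change of 1.69 ± 0.37 (SE) in WT (edgeR adjusted p = 0.0012) and 1.39 ± 0.37 in KO (adjusted p = 0.0055).

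H2-Aa, the α chain that pairs with H2-Ab1, was at 257, 322 and 405 CPM in WT on day 7 and at 708, 657 and 980.4 CPM on day 10. KO libraries had 325, 473 and 457 CPM on day 7 and at 1235, 447 and 822 CPM on day 10. The KO library labelled 67 on day 10 fell inside the range of day 7. H2-Aa rose by 1.25 ± 0.35 in WT (edgeR adjusted p = 0.0078) and by 1.00 ± 0.35 in KO (adjusted p = 0.029). Its call was lost in more alternatives than that of any other member. In KO it was lost with just the groups compared and without mouse 63, 64, 65 or 68. It was also lost without number 67 after the exchange described below. The same held with the labelled mouse as a block in limma-voom, a linear fit on log2 CPM. Its edgeR adjusted p, or that of the alternative fit, ran from 0.00079 to 0.36 over the 19 alternatives, the last without the libraries labelled 64. In WT it was 0.074 without mouse 63 and 0.058 without mouse 66.

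H2-Eb1, the β chain of I-E, was at 156, 209.7 and 252 CPM in WT on day 7 and at 504, 458 and 719 CPM on day 10. KO libraries had 215, 309 and 288 CPM and then at 907, 342 and 599 CPM. Neither genotype overlapped between these days. The log2 change was 1.44 ± 0.35 in WT (edgeR adjusted p = 0.0029) and 1.19 ± 0.35 in KO (adjusted p = 0.011), and without mouse 64 the KO adjusted p was 0.18 for H2-Eb1 and 0.11 for H2-Ab1. The I-E α chain needed to pair with H2-Eb1 is listed as the pseudogene H2-Ea-ps, which had 2 counts in the whole series, both in 1 WT library of day 9. The related H2-Eb2 stayed at 0.28 to 4.95 CPM.

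The I-A chains did not rise in step. Per transcript length, in TPM (the authors' values scaled by length and library total), the ratio of H2-Aa to H2-Ab1 was 0.792 to 0.852 in WT on day 7 and 0.596 to 0.630 on day 10. In KO it moved from 0.721-0.795 to 0.567-0.590. Days did not overlap in either genotype (two-sided exact permutation p = 0.1 in each, the smallest that 3 against 3 libraries can give). The ratio of H2-Eb1 to H2-Ab1 likewise went from 1.01 in 3 of 3 WT libraries, 1.006 to 1.013, to 0.812-0.877 (exact permutation p = 0.1).

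Cd74, the invariant chain, was the most abundant of the 10 in TPM in each group. It was at 778, 956 and 1113 CPM in WT on day 7, at 1364, 1334 and 1713 on day 8, at 1987, 1891 and 2123 on day 9 and at 2428, 2194 and 3475 on day 10. No WT day overlapped the next. In KO it was at 1019, 1408 and 1385 CPM on day 7, at 1665, 2449 and 1293 on day 8, at 1459, 3393 and 2181 on day 9 and at 4040.1, 1993 and 3005 on day 10. Cd74 rose by 1.51 ± 0.29 in WT (edgeR adjusted p = 0.00037) and by 1.25 ± 0.29 in KO (adjusted p = 0.0019).

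Ciita, the transactivator, changed more than H2-Aa, H2-Ab1, H2-Eb1 and Cd74 in both genotypes, and less than H2-DMb2. It was at 15.01, 16.9 and 16.6 CPM in WT on day 7, at 28.5, 29.6 and 31.5 on day 8, at 71.4, 57.4 and 65.2 on day 9 and at 128, 109.6 and 129 on day 10. The WT libraries stayed close together within a day and no day overlapped the next. For KO the values were 25.1, 54.1 and 28.1 CPM on day 7, at 38.9, 78.5 and 18.7 on day 8, at 40.2, 154 and 72.9 on day 9 and at 244, 83.3 and 152 on day 10. Here 1 library stood well above the other 2 on days 7, 8 and 9. The log2 change from day 7 to day 10 was 2.91 ± 0.48 in WT, 7.54-fold (edgeR adjusted p = 9.6e-05), and 2.16 ± 0.46 in KO, 4.48-fold (adjusted p = 0.0011). Dexi, on the other strand, changed by 0.41 in WT (adjusted p = 0.025) and 0.30 in KO (adjusted p = 0.094).

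H2-DM is a dimer of the product of H2-DMa with that of H2-DMb1 or H2-DMb2. H2-DMa was at 111, 111 and 125 CPM in WT on day 7, at 229.8, 207 and 233 on day 8, at 219.7, 213 and 222 on day 9 and at 223, 229 and 295 on day 10. Most of the rise fell between days 7 and 8, and in WT day 10 lay wholly above day 9. For KO the values were 119, 145 and 138 CPM on day 7, at 220.0, 271 and 204 on day 8, at 194, 272 and 231 on day 9 and at 299, 227 and 275 on day 10, with the same early step. The change to day 10 was 1.11 ± 0.13 in WT (edgeR adjusted p = 3.5e-06) and 1.00 ± 0.13 in KO (adjusted p = 1.2e-05). Brd2, on the other strand, changed by -0.10 in WT and 0.01 in KO over the same days, with adjusted p of 0.17 and 0.92, and by 0.21 and 0.24 from day 7 to day 8, with adjusted p of 0.0066 and 0.0025.

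H2-DMb1 was the flattest of the 10. It went from 64.9, 73.9 and 78.2 CPM in WT on day 7 to 105, 110.3 and 133 CPM on day 10, and in KO from 63.3, 71.2 and 74.6 to 135, 92.9 and 119.9 CPM. Its log2 change was 0.68 ± 0.15 in WT (edgeR adjusted p = 0.0015) and 0.74 ± 0.15 in KO (adjusted p = 0.00085). Its near copy H2-DMb2 was the steepest. H2-DMb2 was at 8.51, 8.15 and 8.81 CPM in WT on day 7, at 28.3, 21.4 and 26.6 on day 8, at 61.1, 54.1 and 58.6 on day 9 and at 111, 102 and 124 on day 10. Its KO values were 9.90, 32.4 and 12.6 CPM, then 28.9, 58.3 and 18.6, then 37.4, 118 and 60.8, and on day 10 200.1, 73.6 and 124. The change was 3.72 ± 0.49 in WT, 13.2-fold (edgeR adjusted p = 9.4e-06), and 2.86 ± 0.46 in KO, 7.25-fold (adjusted p = 8.4e-05).

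The balance of the H2-DM β chain transcripts moved toward H2-DMb2. The TPM ratio of H2-DMb2 to H2-DMb1 in WT was 0.126, 0.106 and 0.108 on day 7 and 1.02, 0.889 and 0.894 on day 10. Among KO libraries it was 0.151, 0.438 and 0.163 on day 7 and 1.42, 0.762 and 0.996 on day 10. No day 10 library overlapped day 7 in either genotype (two-sided exact permutation p = 0.1 in each, the smallest possible). The windows shared by both transcripts, 12.9% of those of H2-DMb2, could move counts between them, and a split of shared reads was not tested.

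**Figure D2:**
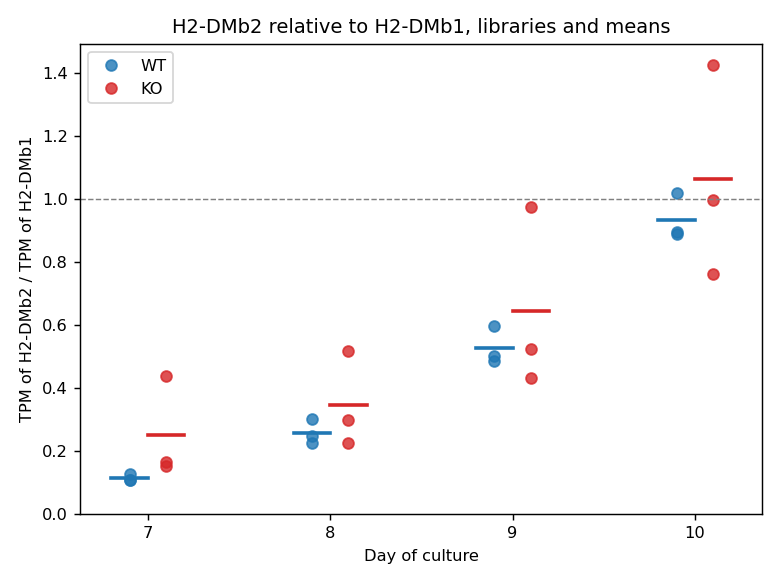
The x axis is the day of culture and the y axis the TPM of H2-DMb2 divided by the TPM of H2-DMb1. Points are libraries, bars are group means, and the dashed line marks equal TPM. WT libraries run from 0.106-0.126 on day 7 to 0.889-1.02 on day 10, and KO libraries from 0.151-0.438 to 0.762-1.42.

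H2-Oa and H2-Ob encode the chains of H2-O, best known from B cells. H2-Ob was at 3.57, 3.79 and 3.29 CPM in WT on day 7, at 3.28, 3.14 and 2.71 on day 8, at 8.87, 9.35 and 8.09 on day 9 and at 28.2, 21.2 and 20.4 on day 10. On day 8 its CPM lay below day 7 without overlap, which did not pass the test (edgeR adjusted p = 0.78) and was not seen in TPM, where the means were 1.753 and 1.757 and the libraries overlapped. Its KO values were 2.20, 9.77 and 3.64 CPM, then 3.42, 5.50 and 1.56, then 5.48, 19.1 and 8.91, and on day 10 47.7, 11.1 and 25.7. The change from day 7 to day 10 was 2.71 ± 0.54 in WT (edgeR adjusted p = 0.00056) and 2.44 ± 0.52 in KO (adjusted p = 0.0011). H2-Oa was at 4.01, 3.89 and 5.73 CPM in WT on day 7, at 3.25, 2.64 and 2.87 on day 8 and at 15.7, 12.5 and 20.6 on day 10. In KO it went from 4.31, 11.2 and 6.47 CPM on day 7 to 24.7, 7.62 and 17.5 CPM on day 10, which overlap. H2-Oa rose by 1.84 ± 0.44 in WT (edgeR adjusted p = 0.0029) and 1.18 ± 0.43 in KO (adjusted p = 0.036). The KO call was lost without mouse 64, with adjusted p = 0.44, and in 5 more of the 19 alternatives run.

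The TPM scale allows the genes to be ranked. In WT on day 7 the order was Cd74 (1499.8 ± 264 TPM, SD, n = 3), H2-Eb1, H2-Ab1, H2-Aa, H2-DMb1, H2-DMa, H2-DMb2, H2-Oa, Ciita and H2-Ob (1.75 ± 0.14). The libraries of H2-Eb1 and H2-Ab1, and those of H2-Ab1 and H2-Aa, overlapped, and the other neighbours did not. On day 10 in WT the order was Cd74 (5165 ± 1128), H2-Ab1 (1089 ± 216), H2-Eb1 (926 ± 199), H2-Aa (662 ± 124), H2-DMa (232 ± 28.5), H2-DMb1 (222 ± 20.2), H2-DMb2 (207 ± 16.4), Ciita (41.3 ± 3.99), H2-Oa (37.1 ± 8.31) and H2-Ob (14.03 ± 3.14). Neighbours overlapped within the 3 classical chains, within the 3 H2-DM genes and between Ciita and H2-Oa, and did not overlap between these blocks. In KO on day 10 the blocks stood in the same order by mean TPM. They ran from Cd74 at 6248 ± 2542 TPM to H2-Ob at 18.5 ± 13.1 TPM. The libraries of H2-Oa and H2-Ob overlapped in KO, so H2-Ob was not separate there as it was in WT. Within the H2-DM genes, the KO mean of H2-DMb2 was above that of H2-DMb1, with overlap.

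From day 7 to day 8, the step that follows the second replating, the share of members that rose was near that of all genes. In WT 3 of 10 rose, beside 21.5% of all genes: H2-DMa (0.95 ± 0.13, edgeR adjusted p = 9.1e-06), H2-DMb2 (1.58 ± 0.48, adjusted p = 0.011) and H2-DMb1 (0.41 ± 0.15, adjusted p = 0.036). In KO, 2 of 10 rose, beside 21.1%: H2-DMa (0.79 ± 0.13, adjusted p = 7.5e-05) and H2-DMb1 (0.43 ± 0.15, adjusted p = 0.029). The WT calls of H2-DMb1 and H2-DMb2 were lost without any 1 of the 3 WT mice, and the KO call of H2-DMb1 without mouse 64 or mouse 67. By overlap of libraries, 5 of 10 genes were wholly higher on day 8 in WT, beside 29.8% of all genes, and 2, H2-Oa and H2-Ob, wholly lower, beside 30%. In KO, 2 of 10 were wholly higher, beside 23%. None of the classical chains passed over this step. Their mean CPM on day 8 in WT was 1.045 times that of day 7 for H2-Aa, 1.075 times for H2-Eb1 and 1.21 times for H2-Ab1, with overlap for each. In TPM the H2-Ab1 libraries did not overlap, at 209 to 340 and then 349 to 464.

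Later steps gave 0 calls in edgeR. From day 8 to day 9 no member passed in WT, beside 5.4% of all genes, or in KO, beside 2.33%, while 4 and 3 members had an unadjusted p under 0.05, as did 21.8% and 18.7% of all genes. DESeq2 called 0 in WT and 1 in KO. From day 9 to day 10 no member passed in WT, beside 3.6%, or in KO, beside 0.0963%, with 6 and 1 at an unadjusted p under 0.05, beside 17.7% and 12% of all genes, and DESeq2 called 0 in each. Without the libraries labelled 67, which by Ddx3y are not from 1 mouse on days 9 and 10, 7 members passed in WT and 9 in KO at this step, when 1064 and 2090 of 14674 genes did. Without number 67 after the exchange described below, 4 and 0 passed, when 812 and 5 of 14636 genes did. In limma-voom with the exchanged number as a replicate block, 3 and 1 passed, when 1124 and 457 of 14535 genes did. From day 8 to day 9 that fit gave 2 and 2, when 1707 and 1295 genes passed. From day 8 to day 9, 4 and 2 passed without the libraries labelled 67, when 1653 and 547 genes did. Without the 4 KO libraries whose numbers are in doubt, which leaves KO 1 library on days 8 and 10, assumed to vary like the other groups, the KO change from day 8 to day 9 was positive for 5 of 10 members, with a median of 0.01 in place of 0.56. In WT the libraries nonetheless separated: 8 of 10 genes were higher without overlap on day 9 than on day 8, beside 17.4% of all genes, and 9 of 10 on day 10 than on day 9, beside 14%. In KO 0 of 10 did so at either step, beside 8.51% and 5.63%. Group means of H2-Ob grew 2.88-fold and then 2.65-fold over these steps in WT and those of H2-Aa 1.31-fold and 1.74-fold, whereas H2-DMa changed 0.977-fold and 1.14-fold. With just the libraries of the groups compared in the fit, and thus no KO library in the estimate of spread, 8 and 7 WT members passed, when 2123 and 774 of 14535 genes did.

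**Figure D3:**
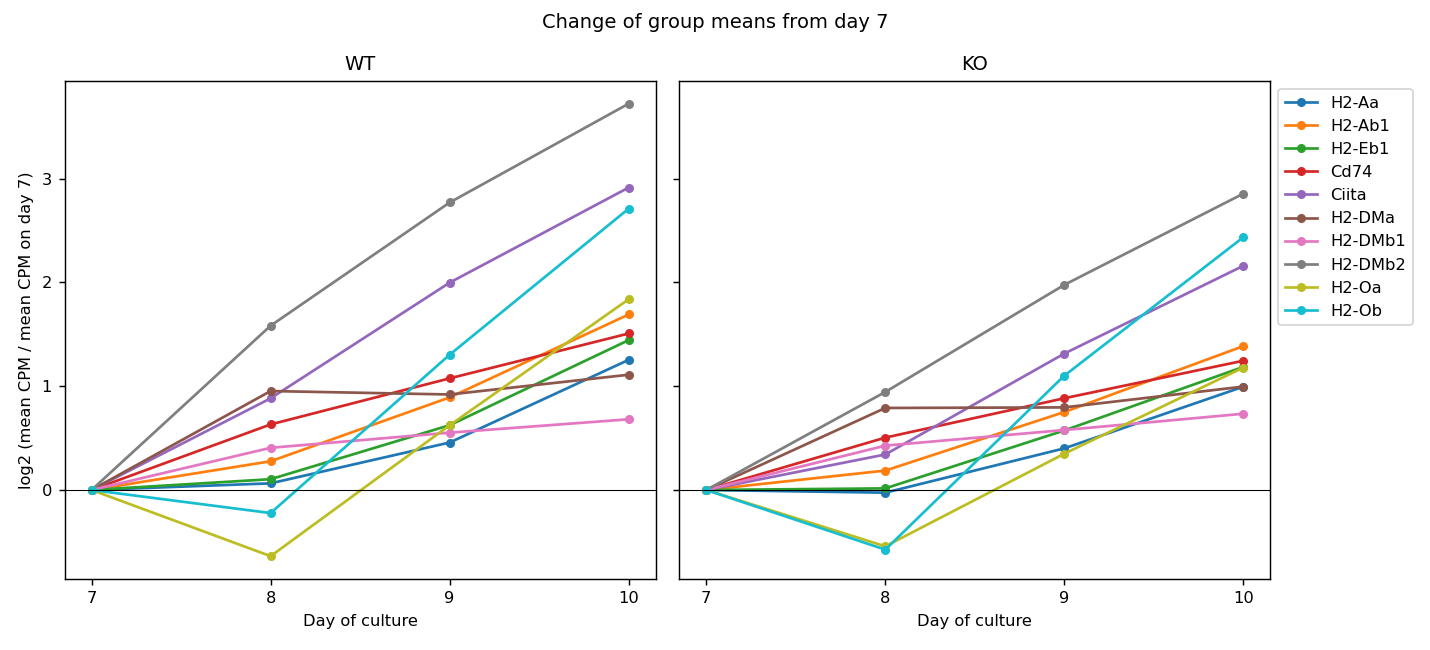
The x axis is the day of culture and the y axis the log2 ratio of each group's mean CPM to that of day 7, with 1 line a gene. H2-DMb2, Ciita and H2-Ob end highest in both panels, and H2-DMa makes most of its rise by day 8. On day 8 in WT, H2-Oa and H2-Ob are at 0.643 and 0.857 of day 7, differences that did not pass the test.

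Between genotypes, KO means were higher than WT means for 9 of 10 genes on each day, H2-DMb1 being the other, but no member passed the test. On day 7, 0 of 10 were called by edgeR, beside 1.45% of all genes. On days 8, 9 and 10, 0 of 10 were called each time, beside 0.00688%, 0.00688% and 0.0138%. Without adjustment, 2, 0, 0 and 0 members had p under 0.05, beside 15.7%, 5.91%, 8.15% and 7.3% of all genes, and DESeq2 called 0 on each day. The median difference of the 10 was 0.44, 0.30, 0.32 and 0.15 on the log2 scale on days 7 to 10, against -0.01, 0.00, 0.00 and 0.00 over all genes. In limma-voom with the labelled mouse as a block (consensus correlation 0.0046) the member medians were 0.41, 0.24, 0.17 and 0.07. On day 10 H2-Aa and H2-Oa were then negative too. This fit differs from edgeR in its model as well as in the block, and the part of each was not tested. The sign of H2-DMb1 turned positive on the TPM scale on all 4 days and with DESeq2 size factors on day 10, and that of H2-Oa turned negative on the TPM scale on day 10.

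Ciita and H2-DMb2 were the members with every KO library above every WT library on day 7, a pattern that 11.9% of all genes had. The lowest KO library of Ciita, at 25.1 CPM, stood above the highest WT library, at 16.9 CPM. For Ciita the log2 difference was 1.14 ± 0.47 (edgeR adjusted p = 0.24), with a 95% interval of 0.14 to 2.14. For H2-DMb2 it was 1.11 ± 0.48 (edgeR adjusted p = 0.27), with an interval of 0.09 to 2.12. Without mouse 67 these differences were 0.74 and 0.42. On days 8, 9 and 10 the genotypes overlapped for 10 of 10 members, when 4.4%, 7.62% and 5.47% of all genes were wholly higher in KO and 4.99%, 6.47% and 4.97% wholly lower.

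**Figure D4:**
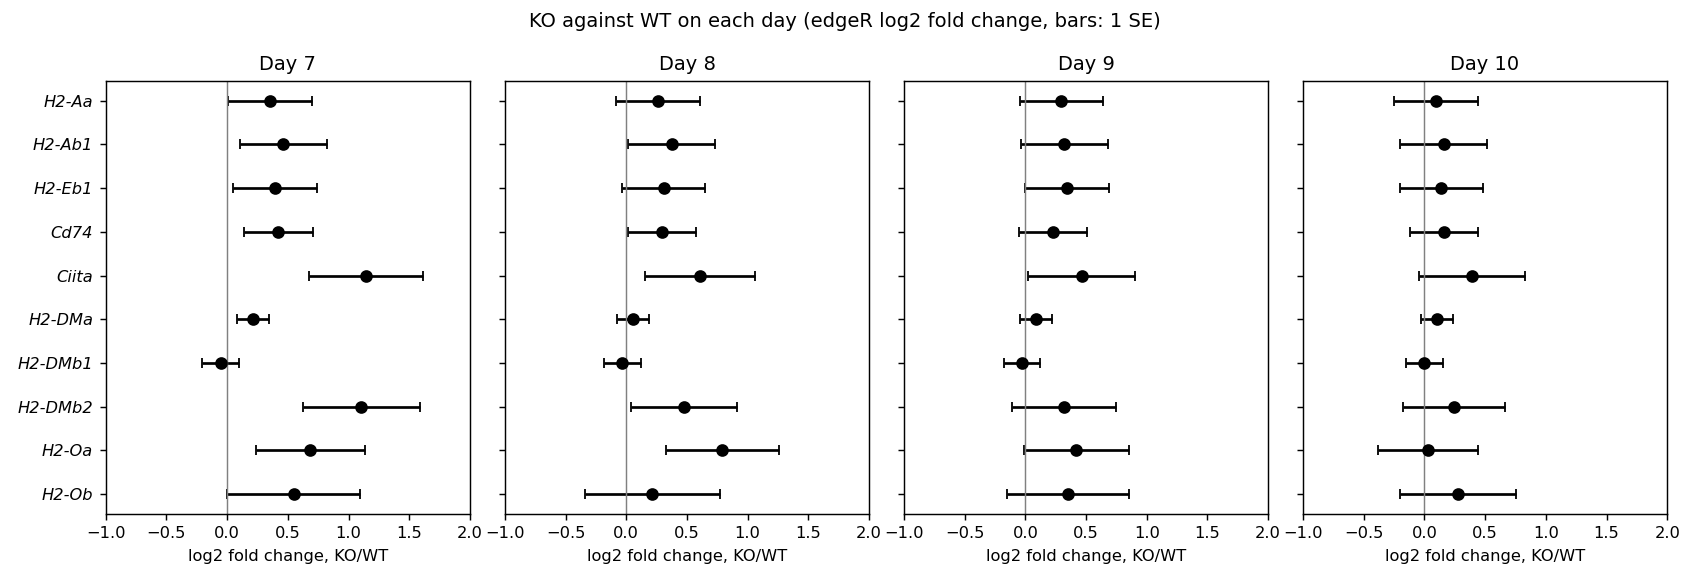
Each panel is 1 day, with the edgeR log2 fold change of KO over WT on the x axis and the 10 genes on the y axis; bars are 1 SE. Most points lie right of 0, from a median of 0.44 on day 7 to 0.15 on day 10, and no difference passed the adjusted threshold.

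The intervals, not adjusted for the genes tested, show which differences lie within the error of these libraries. On day 10 the 95% interval of the log2 difference was -0.60 to 0.92 for H2-Ab1, -0.44 to 0.75 for Cd74 and -0.53 to 1.32 for Ciita. It was narrower for H2-DMa, at -0.18 to 0.38, and H2-DMb1, at -0.32 to 0.32. The change from day 7 to day 10 also did not pass a test of difference between genotypes: 0 of 10 interactions were called by edgeR, beside 0.0619% of all genes, 0 had an unadjusted p under 0.05, and DESeq2 called 0. The interaction was negative for 9 of 10 genes, with a median of -0.27. Without the libraries labelled 67 it was positive for 9 of 10, with a median of 0.12, and without those labelled 64 for 0 of 10, with a median of -0.85, but by Ddx3y both labels mix mice across days 7 and 10. Without number 67 after the exchange it was positive for 0 of 10, with a median of -0.54. H2-DMb2 had -0.86 ± 0.64 (adjusted p = 0.89) and Ciita -0.75 ± 0.64 (adjusted p = 0.92).

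On days 8 to 10 the KO differences of most members turned negative when the highest KO library of the day was left out. That step lowers the KO mean by construction. For H2-Ab1, the middle KO library of those days, at 373, 568 and 942 CPM, stood above the WT means of 327, 500 and 870. The lowest, at 266, 328 and 533 CPM, stood below them. Without the library labelled 67, 2 of 10 members were higher in KO on day 8 and 0 of 10 on day 9, with medians of -0.04 and -0.14. Without the library labelled 64, 1 of 10 was higher on day 10, with a median of -0.20. On day 7, 8 of 10 stayed higher without mouse 67, with a median of 0.29. Without the 4 KO libraries in doubt, 10 of 10 were higher in KO on day 8, with a median of 0.84, resting on the library labelled 67 alone. On day 10 it was 10 of 10, with a median of 0.13, resting on the library labelled 68 alone.

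On days 8 to 10, KO libraries spread more than WT libraries for most of these genes. The ratio of the highest to the lowest library was wider in KO for 5, 9, 10 and 9 of 10 members on days 7 to 10, when 65.1%, 71.6%, 61.3% and 62% of 11002 genes with an average log2 CPM above 1 were wider in KO. The median ratio of the members was 1.53, 2.24, 2.97 and 2.71 in KO and 1.31, 1.30, 1.14 and 1.43 in WT. Ciita on day 9 ran from 40.2 to 154 CPM in KO and from 57.4 to 71.4 CPM in WT. H2-DMa, at 194 to 272 CPM in KO on day 9, was among the members that spread least.

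The members moved together between KO libraries, and their order followed Ddx3y. On each of the 4 days, the KO library with high Ddx3y was the lowest of the 3 for 10 of 10 members, whichever mouse number it carried, a pattern shared by 10.9% of those 11002 genes. In WT, mouse 63 was lowest for 17 of 40 combinations of gene and day, and no member was lowest there on all days. The highest KO library was 67 on day 7 for 9 of 10 members, 67 on days 8 and 9 and 64 on day 10 for 10 of 10. If the KO numbers 64 and 68 are exchanged on day 8, and 64 and 67 on day 10, so that high Ddx3y stays with 1 number, the highest library is 67 and the lowest 64 on each day. That 64 is lowest restates the order by Ddx3y. Ddx3y does not tell 67 from 68, so which of them is highest depends in part on the exchange chosen. Under that exchange Ciita ran through 25.1, 18.7, 40.2 and 83.3 CPM in number 64 on days 7 to 10, through 54.1, 78.5, 154 and 244 CPM in number 67, and through 28.1, 38.9, 72.9 and 152 CPM in number 68. Without the 8 libraries with high Ddx3y, 10 of 10 members still rose from day 7 to day 10 in each genotype, when 4572 of 14530 genes were called in WT and 5016 in KO in either direction, and 0 differed between genotypes.

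Several marker lists were ordered by library in KO as well. The summed mature dendritic cell list (Ccr7, Fscn1, Cd40, Cd86, Ccl22 and Relb) was highest in the KO library with the highest member values, and lowest in the one with high Ddx3y, on 4 of 4 days. It was at 243, 402 and 318 CPM in KO on day 7, at 441, 1022 and 363 on day 8, at 349, 752 and 430.5 on day 9 and at 918, 428 and 595 on day 10, and in WT it ranged from 164 to 507 CPM. The summed mast cell and basophil list was also highest in the high-member library on days 7 to 9, at 214, 177 and 152 CPM, and on day 10 stood at 68.6 CPM there and in number 68. The T cell list was highest there on 4 of 4 days, at 1.80, 2.01, 4.34 and 10.2 CPM. Of its genes, Cd3g reached 9.10 CPM over all libraries, Lck 1.67, Trac 0.342 and Cd3e 0.257. The B cell list was lowest in the high-member library on 4 of 4 days, at 66.0, 21.8, 23.1 and 21.7 CPM, most of it Cd22. The general dendritic cell list, most of it Itgax, was highest in the high-member library on 0 of 4 days and lowest there on days 7, 9 and 10, at 942, 1199 and 1174 CPM. Flt3, of the same list, was highest there on 4 of 4 days, at 4.37, 6.70, 4.45 and 2.86 CPM. The summed macrophage list was lowest in the high-member library on 4 of 4 days, at 4216, 3209, 2831 and 2571 CPM. It was highest in the KO library with high Ddx3y on 3 of 4 days, at 4701, 3813 and 3609.9 CPM on days 8 to 10. Neutrophil markers were lowest in the library with high Ddx3y on 3 of 4. From day 7 to day 10 in WT, mature dendritic cell markers went from 164-204 to 297-507 CPM, macrophage markers from 4506-4817 to 2767-2838 CPM, and neutrophil markers from 1656-3239 to 4004-5874 CPM. The part of these markers in the course of the 10 genes was not tested.

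**Figure D5:**
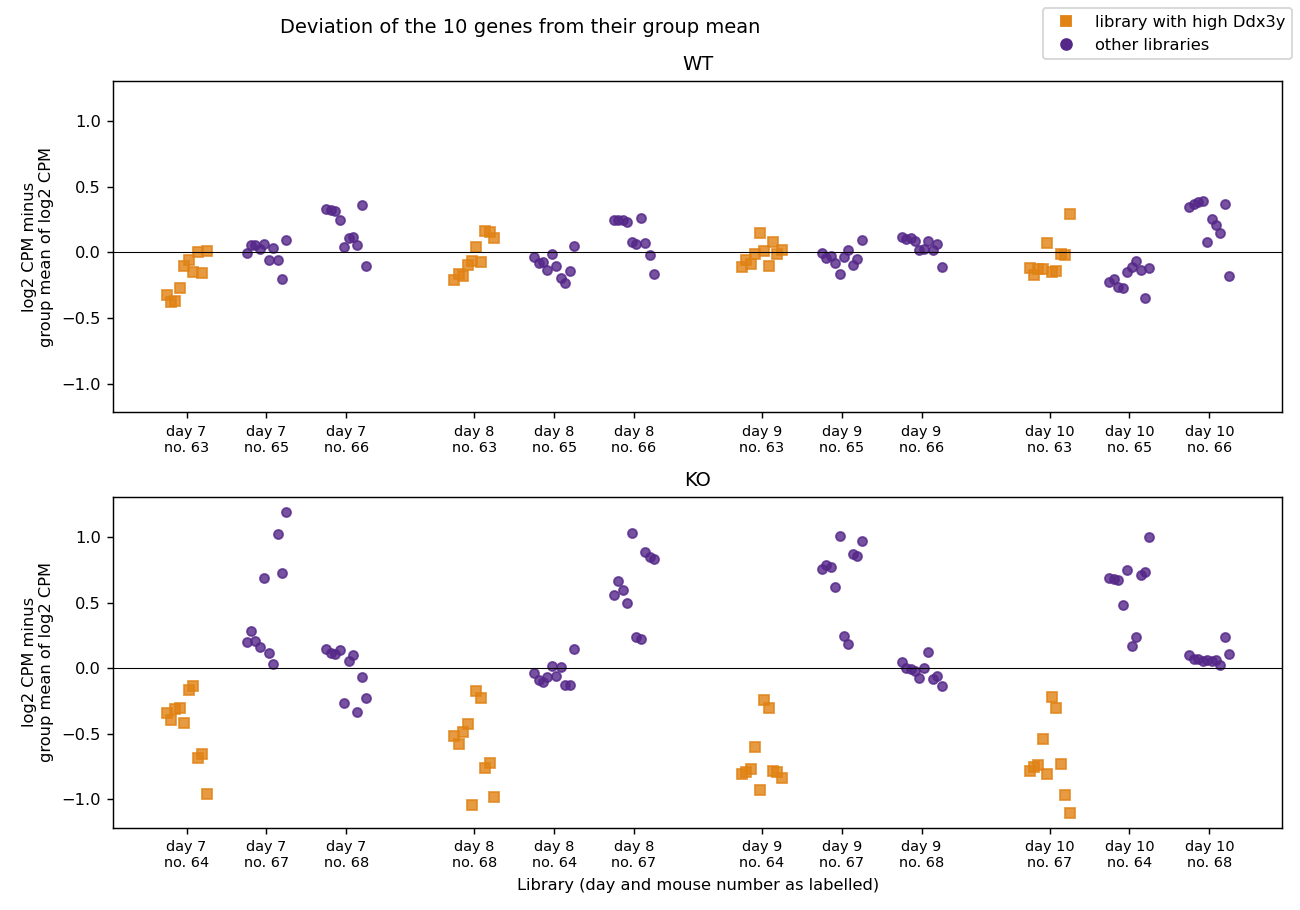
Each column is a library, labelled by day and mouse number, and each point 1 of the 10 genes; the y axis is log2 CPM minus the mean log2 CPM of its group. Orange squares mark the library with high Ddx3y and purple circles the others. In KO the squares lie below 0 for 10 of 10 genes on each day, and in WT they straddle 0.

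Likeness in course was measured against Ciita. Over the 24 libraries, Ciita had a Pearson r of log2 CPM of 0.79 with H2-DMa, 0.82 with H2-DMb1, 0.96 with H2-Ab1 and 0.97 with H2-DMb2, the range over the other 9 being 0.79 to 0.97. These libraries share mice, days and genotypes, so r describes the course and is no test. Within groups, as deviations from group means, r with Ciita was 0.88 to 0.97 over the 12 KO libraries and -0.06 to 0.62 over the 12 WT libraries, where the spread was small.

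Genes outside the list with the most similar profile were found among 10567 genes by Pearson r over the 24 libraries. For the mean of H2-Aa, H2-Ab1, H2-Eb1 and Cd74 they were Napsa (0.97), Rogdi (0.96), Net1 (0.95), Mpzl3 (0.95) and Srebf2 (0.95). Napsa, an aspartic protease, was at 239 ± 12.5 CPM (SD, n = 3) on day 7 and 397 ± 46.0 CPM on day 10 in WT. For Ciita they were Rtn1 (0.98), Ifitm1 (0.98), Heg1 (0.98), Cldn1 (0.98) and Asgr2 (0.98). Cldn1, a tight junction protein, was at 3.34 ± 0.55 CPM on day 7 and 32.6 ± 3.79 CPM on day 10 in WT, and in KO at 20.8 to 70.1 CPM on day 10.

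Other genes of the pathway moved in both directions. Of 34 listed genes 32 were tested. From day 7 to day 10, 8 rose and 13 fell in WT and 7 rose and 11 fell in KO, with a median change of -0.02 and -0.05. Of all genes, 18.9% rose and 18.1% fell in WT, and 19.7% rose and 17.1% fell in KO. Among the 7 genes of the complex that binds the X and Y boxes, Rfxank (0.43, edgeR adjusted p = 0.005) and Nfyb (0.41, adjusted p = 0.01) rose and Nfya fell by 0.29 in WT (adjusted p = 0.00088). In KO, Rfx5 (0.31, adjusted p = 0.043) and Nfyb (0.52, adjusted p = 0.002) rose. Rfx5 stood at 16.02 ± 1.26 CPM (SD, n = 3) on day 7 and 18.8 ± 1.60 CPM on day 10 in WT, a small step beside that of Ciita.

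Among 11 regulators of Ciita, 4 rose and 5 fell in WT, beside 18.9% and 18.1% of all genes, and 3 rose and 5 fell in KO, beside 19.7% and 17.1%. Irf4, a transcription factor of dendritic cells, was at 40.7 ± 2.65 CPM on day 7 and 115 ± 7.41 on day 10 in WT, and in KO at 40.3 ± 8.86 and 133 ± 44.1 (log2 change 1.50 and 1.72, edgeR adjusted p = 2e-04 and 6.5e-05). Socs1, an inhibitor of cytokine signalling, went from 6.31 ± 0.31 CPM on day 7 to 66.3 ± 5.01 on day 8 and 41.6 ± 7.31 on day 10 in WT (2.72 from day 7 to day 10, adjusted p = 1.7e-12). In KO its change was 2.90 (adjusted p = 3.5e-13). Prdm1, a known repressor of Ciita, fell in WT, where it was at 32.9 ± 3.72 CPM on day 7 and 12.1 ± 1.016 on day 10, and in KO, at 32.5 ± 3.31 and 11.3 ± 1.14, log2 changes of -1.44 and -1.53 (adjusted p = 1.5e-07 and 7.7e-08).

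Of 9 listed genes for cutting the invariant chain and antigen, which include the inhibitor Cst3, 1 rose and 6 fell in WT and 1 rose and 5 fell in KO, when 18.9% of all genes rose and 18.1% fell in WT and 19.7% rose and 17.1% fell in KO. Ctss, the cathepsin known for the last cut of the invariant chain, had 7359 ± 228 CPM on day 7 and 3879.7 ± 571 on day 10 in WT (-0.92 ± 0.17, edgeR adjusted p = 0.00027) and changed by -1.09 ± 0.17 in KO (adjusted p = 6.7e-05). Lgmn changed by -1.16 in WT and -0.99 in KO, Ctsb by -1.07 and -1.12, and Ctsd by -1.01 and -1.22, all past the threshold. Most of the fall of Ctss fell between days 7 and 8, when it reached 3762 ± 340.1 CPM in WT. Cst3, which encodes the protease inhibitor cystatin C, rose by 0.74 in WT (adjusted p = 0.0073) and 0.68 in KO (adjusted p = 0.012).

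Of 4 genes listed under turnover at the surface, 1 rose (Mir155hg) and 1 fell (March8) in each genotype. Of all genes, 18.9% rose and 18.1% fell in WT, and 19.7% rose and 17.1% fell in KO. March1, the ligase that marks class II for degradation, changed by 0.05 in WT (edgeR adjusted p = 0.8) and 0.24 in KO (adjusted p = 0.12). March8, a related ligase, fell by 0.28 in WT (adjusted p = 0.0071) and fell by 0.25 in KO (adjusted p = 0.016). Cd83, known to oppose March1, changed by -0.68 in WT (adjusted p = 0.073) and -0.14 in KO (adjusted p = 0.75). Mir155hg rose by 2.67 in WT (adjusted p = 0.0085) and 2.71 in KO (adjusted p = 0.0052) from day 7 means of 0.128 (WT) and 0.15 (KO) CPM. On day 10 its means were 0.852 and 1.02 CPM, so it stayed near the floor. Between genotypes 0 of the 32 pathway genes were called by edgeR on any of the 4 days, and 0 in the interaction.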

How the data were processed

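The 10 genes and all gene lists were chosen with earlier results of these data known. The authors deposited raw counts per gene and TPM (per length and library total); gene lengths behind TPM were not given. FastQC 0.11.9, STAR 2.6.1, DESeq2 1.22.2 and mm10 are named in the submitters' processing notes; the counter, its strand setting and the annotation are not given in the sources used here. Per the labels' protocols, 2 library kits were used without saying which library had which, so no batch could be set. Of 55487 identifiers, 55094 matched GENCODE M21 with version and 55394 without.

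Counts were fitted with edgeR 4.0.16 in R 4.3.3 (filterByExpr, TMM, quasi-likelihood, 8 group means, 24 libraries, 16 residual degrees of freedom), leaving 14535 of 28655 genes with any count, in 13 comparisons. The script was tested on simulated data. CPM use TMM factors; an SE is the absolute log2 change over the root of F. Counts are PCR-amplified reads without molecular identifiers, so depth bounds counting error only. Named genes were the 10 members, pathway genes called between genotypes or among the 3 largest changes per direction from day 7 to day 10, the 5 genes most alike in course, and checks; the other pathway and marker genes, the overlapping genes and the TPM ratios were chosen after their values were seen.

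Mouse numbers recur on each day and in WT name the same animal: same-numbered libraries deviated together from their group means (mean r 0.49, range 0.15 to 0.74 over 18 pairs). In KO as labelled the mean r was 0.00 (-0.80 to 0.80), and with numbers exchanged to follow Ddx3y 0.58 (0.16 to 0.87). Alternatives were DESeq2 1.42.0 (size factors, Wald test), other filters, the groups compared alone, and limma 3.58.1 on log2(TPM + 1) and log2(TPM + 0.1). Others were the members left out of scaling, a fold threshold, each mouse left out, and the 8 libraries with high Ddx3y left out. The mouse as a replicate block was fitted with limma-voom in place of edgeR. The 3 that use exchanged numbers were added after seeing the data.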

Additional observations from a re-analysis of the deposited data

How the results depend on the processing

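Counts of members called between genotypes (0 on each day) and in the interaction (0) held in all 20 alternatives. From day 7 to day 10 WT gave 9 to 10 and KO 6 to 10 when a mouse was left out. KO gave 6 without the libraries labelled 64. For 10 of 10 members these held the lowest value of KO on day 7 and the highest on day 10, so leaving them out narrows the change. In limma-voom with the mouse as a replicate block (numbers as labelled, consensus correlation 0.0046) WT gave 10 and KO 9, H2-Aa in KO being lost. That fit changed no other call of day 10 against day 7. With exchanged numbers (0.23) both gave 10. KO gave 8 with just the groups compared (H2-Aa and H2-Oa lost) and 9 without exchanged number 67 (H2-Aa lost). At a log2 change of at least 1 KO gave 7, where WT gave 9. The fit without the 4 exchanged libraries leaves KO 1 library on days 8 and 10, so its KO calls are not given. Day 8 against day 7 in WT (3) gave 1 at a log2 change of at least 1, 6 with just the groups compared, 1 to 5 with a mouse left out and 5 without the KO libraries of number 67 after the exchange. In KO (2) it gave 0 at a log2 change of at least 1 and 1 to 2 with a mouse left out. Day 9 against day 8 (0) gave in WT 3 with no filter, 8 with just the groups compared, 0 to 4 with a mouse left out, 2 with the exchanged block, 4 without the 4 exchanged libraries and 4 without exchanged number 67; in KO 1 with the DESeq2 Wald test, 1 with no filter, 0 to 2 with a mouse left out, 1 without the 8 libraries with high Ddx3y, 2 with the exchanged block and 2 without exchanged number 67. Day 10 against day 9 (0) gave in WT 2 with no filter, 7 with just the groups compared, 0 to 7 with a mouse left out, 3 with the exchanged block, 2 without the 4 exchanged libraries and 4 without exchanged number 67; in KO 0 to 9 with a mouse left out (9 without mouse 67) and 1 with the exchanged block. The cause was not tested. KO against WT turned negative for H2-Ab1, Ciita and H2-DMb2 without mouse 67 on days 8 and 9 and without mouse 64 on day 10. With each mouse left out in turn, they ran from -0.016 to 0.62, -0.032 to 0.98 and -0.082 to 0.78 on day 8, from -0.16 to 0.63, -0.19 to 0.81 and -0.24 to 0.63 on day 9, and from -0.22 to 0.45, -0.035 to 0.70 and -0.17 to 0.53 on day 10. Without exchanged number 67 they were -0.019, -0.035 and -0.085 on day 8, -0.16, -0.19 and -0.24 on day 9 and -0.23, -0.036 and -0.17 on day 10. The median change of all genes from day 7 to day 10 was 0.21 in WT and 0.25 in KO on log2(TPM + 1), and 0.26 and 0.30 on log2(TPM + 0.1), against -0.02 and 0.00 in edgeR, with 10 of 10 members still higher in each. On day 10 the 95% intervals of KO against WT reached 1.32 for Ciita and 1.29 for H2-Ob, so differences up to those sizes are not excluded. These intervals are not adjusted for the genes tested and give no detection limit of the adjusted test.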

Other observations

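Other genes of the class II region on chromosome 17 were compared over the same days. The interval chr17:34092340-34344645, from H2-Oa to the end of the pseudogene H2-Ea-ps beyond the last member, holds 14 other annotated genes, of which 7 were tested. From day 7 to day 10, when 18.9% of all genes rose in WT and 19.7% in KO, 2 of these rose in WT by edgeR, Psmb9 by 0.55 ± 0.15 (adjusted p = 0.0084) and Tap1 by 0.38 ± 0.12 (adjusted p = 0.02), and 1 in KO, Tap1 by 0.43 ± 0.12 (adjusted p = 0.01). Both serve MHC class I: Psmb9 is a subunit of the immunoproteasome and Tap1 of the peptide transporter. Their neighbours Psmb8 and Tap2 changed by 0.28 and 0.24 in WT (adjusted p = 0.082 and 0.083). The lncRNA Gm15821 changed by 0.87 ± 0.64 in WT (adjusted p = 0.3) and H2-Eb2 by 0.60 ± 0.63 (adjusted p = 0.49). Brd2, which overlaps H2-DMa, changed by -0.10 in WT (adjusted p = 0.17). The median over the 7 was 0.38 in WT and 0.28 in KO, beside 1.60 and 1.22 for the 10 class II genes.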
